A study of Homo sapiens with 9 samples.

Results

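The 42 genes described here encode the vacuolar proton pump of the lysosome (V-ATPase) and the proteins that report amino acid supply from the lysosome surface to the kinase complex mTORC1. They were taken by gene symbol from the 20263 gene rows of a count table. All 42 were found, and all 42 passed the filter on low counts. Of these genes, 18 encode V-ATPase subunits or accessory proteins and 24 encode nutrient-sensing proteins. The cells were HaCaT, a spontaneously immortalised line of human epidermal keratinocytes. Control libraries came from HaCaT cells titled Blank, with WT given as their treatment. A second group was HaCaT laden with melanosomes, the pigment granules that melanocytes pass to keratinocytes, and the third was melanosome-laden HaCaT that also received glabridin, an isoflavan of licorice root. Each group had 3 libraries, called control, melanosome and glabridin below, and the glabridin libraries therefore also carry melanosomes. The study asked how glabridin promotes the breakdown of melanosomes in keratinocytes. A glabridin dose, an exposure time and a source of the melanosomes were not given in the sources used here.

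The V-ATPase uses ATP to pump protons into the lysosome. Its cytosolic V1 sector hydrolyses ATP, its membrane V0 sector carries the protons, and lysosomal hydrolases need the acid pH it makes. On the same membrane, Ragulator anchors the Rag GTPases, and when amino acids are plentiful the Rags bring mTORC1 to the lysosome, where RHEB activates it. GATOR1 and the TSC complex switch this branch off, and the folliculin (FLCN) complex acts on RagC and RagD. Active mTORC1 restrains autophagy, the route by which lysosomes also take in organelles. The transcription factors TFEB and TFE3, which mTORC1 holds in the cytoplasm, bind E-boxes in the promoters of many lysosomal genes, and V-ATPase genes are among them.

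Because members of such a network are often described together through that promoter element, the bases before their start sites were searched. RefSeq promoters on GRCh38.p14 were matched by symbol to 33 of the 42 genes, which gave 45 promoters. The palindrome CACGTG occurred within 250 bases before the start in 11 of the 45 (24.4%), against 6.34% of 35116 promoters of the same length. Those 11 promoters belong to 10 genes: ATP6V1G1, ATP6V0B, ATP6V0D1, ATP6V0E2, LAMTOR1, LAMTOR4, RRAGB, RRAGC, FNIP1 and TSC2. The longer GTCACGTG, which contains the first motif and was searched on both strands, was in 8 of 45 (17.8%) against 2.16%. CATGTG, searched on both strands, was in 6 of 45 (13.3%) against 9.42%. A match describes letters, not a bound site. The windows below lie upstream of the start, are written 5′ to 3′ on the gene's strand, and carry CACGTG in capitals. They were picked from the matched genes because they moved in different directions, as described below. RRAGC and ATP6V0E2 were higher than control with melanosomes, RRAGB was lower, and ATP6V1G1 was higher with glabridin than with melanosomes alone. Among all 10 matched genes, ATP6V0B, ATP6V0D1, ATP6V0E2, LAMTOR1 and RRAGC rose with melanosomes by the test described below. RRAGB fell, and ATP6V1G1, LAMTOR4, FNIP1 and TSC2 were not called. Over the 42 members, with a match or without, 47.6% rose and 19.0% fell. The shares over all genes tested were 29.5% and 33.0%.
ATP6V1G1, chr9:114587681-114587745, plus strand: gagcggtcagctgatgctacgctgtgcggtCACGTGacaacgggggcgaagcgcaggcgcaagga
ATP6V0E2, chr7:149872866-149872931, plus strand: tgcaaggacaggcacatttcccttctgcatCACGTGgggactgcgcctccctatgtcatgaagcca
RRAGC, chr1:38859849-38859914, minus strand: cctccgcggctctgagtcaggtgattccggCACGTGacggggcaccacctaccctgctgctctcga
RRAGB, chrX:55717604-55717669, plus strand: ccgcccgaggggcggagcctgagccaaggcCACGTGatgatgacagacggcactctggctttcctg
RRAGB, chrX:55717694-55717738, plus strand: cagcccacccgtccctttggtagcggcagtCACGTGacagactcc
Counted to the start of transcription in the RefSeq table, which can lie downstream of the outermost start in the GENCODE annotation, the match of ATP6V1G1 begins 58 bases before it, that of ATP6V0E2 72 bases, that of RRAGC 112 bases, and those of RRAGB 115 and 25 bases.

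Library totals ran from 39653425 to 46690787 counts. The label of the line was checked against 14 keratinocyte markers, whose summed level was 14940 to 15010 CPM (counts scaled by library size, with TMM factors) in control, 12210 to 13110 in melanosome and 10160 to 12820 in glabridin libraries. The 20 melanocyte markers summed to 203 to 214 CPM in control libraries, where 6 of them (TYR, OCA2, SLC24A5, TRPM1, KIT and S100B) were at 0 in every library, and to 3555 to 3683 CPM in melanosome libraries. In the glabridin libraries they summed to 2613, 3986 and 2211 CPM. All 20 rose from control to melanosome, and 2 rose and 6 fell from melanosome to glabridin. The 8 fibroblast markers summed to at most 45.5 CPM in any library and the 6 leukocyte markers to at most 124.5 CPM, with PTPRC at 0 throughout. Whether transcripts brought in with the melanosomes are part of the values below was not tested. Glabridin replicates 2 and 3 stood apart from each other: over the 42 members, the log2 difference of replicate 3 from replicate 2 had a Spearman correlation of -0.56 with transcript GC content and 0.53 with transcript length, and over 13907 genes the values were -0.54 and 0.37. Members' calls that depended on either library are given below without it. Annotated genes on the opposite strand overlap 19 of the members, RICTOR, RPTOR, MTOR, TSC1, TSC2, NPRL2 and NPRL3 among them, and whether strand was used in counting was not given. In RNA from a whole culture, fewer cells of a type and less RNA per cell cannot be told apart.

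Between control and melanosome libraries the members differed in both directions, with more rises than falls. A gene was called where edgeR's quasi-likelihood test gave an adjusted p under 0.05 over all 13912 genes tested. From control to melanosome 20 of the 42 members rose (47.6%) and 8 fell (19.0%), while 29.5% of all genes tested rose and 33.0% fell. The median log2 change of the members was 0.16, and that of all genes tested was -0.06. With library totals in place of TMM factors, 25 members rose and 4 fell, and that scaling moved the median of all genes by 0.17.

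From melanosome to glabridin 13 members rose (31.0%) and 5 fell (11.9%), against 23.7% and 20.2% of all genes tested, with a median log2 change of 0.14 against 0.01. This balance turned with the scaling: with library totals 6 members rose and 11 fell, and that scaling moved the median of all genes by -0.18. Without glabridin replicate 1 the count of member rises was 8, and over all genes it was 2037, against 3301 with every library. Without glabridin replicate 2 the count of member falls was 9, and without replicate 3 it was 8. Over all genes, leaving out each library in turn gave 2196 to 3376 falls, against 2810 with every library. Between the outer groups, glabridin and control, 26 members rose (61.9%) and 11 fell (26.2%), against 37.6% and 32.7% of all genes tested. The members' median was 0.44 and that of all genes 0.03, and with library totals the counts were 26 and 11 as well. The comparisons share libraries, so their counts are not independent of each other.

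**Figure D1:**
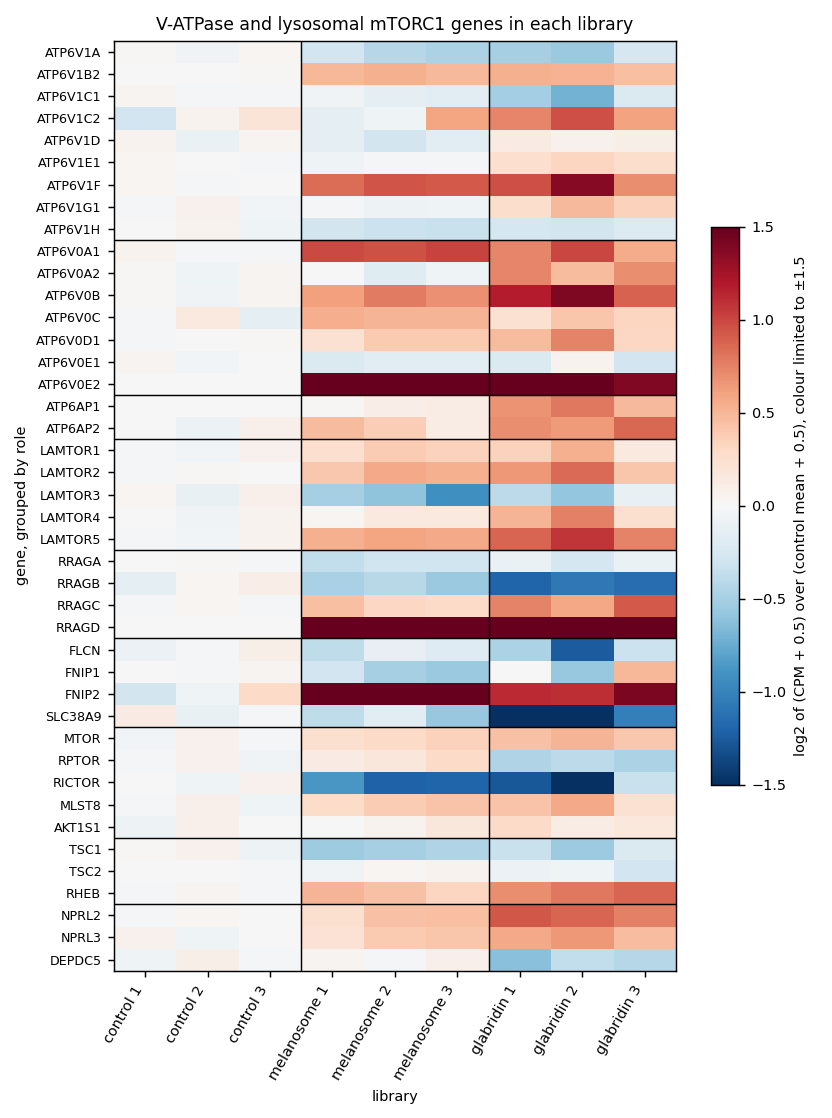
Level of each of the 42 members in each of the 9 libraries, as the log2 ratio of CPM + 0.5 to the control mean + 0.5. Rows are grouped by role, columns are libraries, and colours stop at ±1.5. ATP6V0E2, RRAGD and FNIP2 are dark red in all 3 melanosome libraries, and SLC38A9 and RRAGB are blue in all 3 glabridin libraries.

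The V1 sector did not move as a block. Of its 9 members, 2 rose (22.2%) and 3 fell (33.3%) from control to melanosome. These shares were near the 29.5% and 33.0% of all genes tested. From melanosome to glabridin 3 rose (33.3%) and 1 fell (11.1%), against 23.7% and 20.2%. The catalytic core held both directions. ATP6V1A, the catalytic A subunit, stood at 147.5, 141 and 149.5 CPM in control, at 120.1, 109 and 105 in melanosome and at 103, 99.5 and 122 in glabridin libraries. Its melanosome libraries all lay below control, 1.31-fold lower (log2 -0.39 ± 0.08 SE, adjusted p = 0.00224). With library totals the change was -0.22 and no longer called (adjusted p = 0.071).

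ATP6V1B2, the widely expressed B subunit that sits between the A subunits, stood at 76.9, 77.0 and 78.5 CPM in control, 109, 112 and 108.5 in melanosome, and 112, 111 and 106 in glabridin libraries. Every melanosome and glabridin library lay above every control library, 1.42-fold in the first comparison (log2 0.51 ± 0.05, adjusted p = 1.52e-05). Between melanosome and glabridin the libraries overlapped, with a fold change of 0.999 (adjusted p = 0.99). With library totals that last change was -0.18 and called (adjusted p = 0.0107). ATP6V1F, a subunit of the central stalk, stood at 130.4, 126 and 128 CPM in control, 228, 246 and 243 in melanosome, and 251, 331 and 208 in glabridin libraries. It rose 1.87-fold with melanosomes (log2 0.90 ± 0.13, adjusted p = 0.000189), and the glabridin libraries spread on both sides of the melanosome ones (log2 0.14 ± 0.13, adjusted p = 0.411). Without glabridin replicate 3 the difference was 0.29 and called (adjusted p = 0.0193).

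Among the other stalk subunits, ATP6V1E1 and ATP6V1G1, which form the peripheral stalks, rose from melanosome to glabridin. ATP6V1G1 stood at 131.5, 127 and 128 CPM in melanosome libraries and 161, 188 and 170.4 in glabridin libraries, a 1.34-fold rise (log2 0.42 ± 0.07, adjusted p = 0.000478). The annotation names 5 pseudogenes of ATP6V1G1 and 1 of ATP6V1E1, so reads may have been shared with those copies. ATP6V1E1 rose by 0.32 ± 0.05 on the log2 scale (adjusted p = 0.000493). ATP6V1D, the other named subunit of the central stalk, had a log2 change of -0.20 ± 0.07 with melanosomes (adjusted p = 0.0287), a call that was lost with library totals (-0.03, adjusted p = 0.724), with RLE factors and in 5 of the settings that left out a library. Its change from melanosome to glabridin was 0.29 ± 0.07 (adjusted p = 0.00628), and it was not called without glabridin replicate 1 (0.19, adjusted p = 0.111), with upper-quartile factors (0.18, adjusted p = 0.058) or with library totals (0.11, adjusted p = 0.215).

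ATP6V1H, the regulatory subunit that couples the sectors, was 1.24-fold lower with melanosomes (log2 -0.31 ± 0.06, adjusted p = 0.000717). That change was -0.14 with library totals and not called (adjusted p = 0.0569). The C subunit clamps the peripheral stalks to the collar. ATP6V1C1, its widely expressed form, was 1.28-fold lower in glabridin than in melanosome libraries (log2 -0.36 ± 0.11, adjusted p = 0.0272), a call lost when any melanosome library was left out (-0.38 to -0.32). ATP6V1C2, the restricted form, was near the bottom of the count range, with 4, 11 and 13 counts in control, 8, 8 and 29 in melanosome and 31, 36 and 27 in glabridin libraries. It was called only between the outer groups (log2 1.72 ± 0.53, adjusted p = 0.0141), and that call was lost when control replicate 1 was left out (1.35, adjusted p = 0.0557). With melanosome replicate 3, the highest of its group, left out, the change from melanosome to glabridin was 2.08 and called (adjusted p = 0.0104), against 1.22 ± 0.50 (adjusted p = 0.0696) with all libraries.

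In the V0 sector 5 of 7 members rose with melanosomes (71.4%, against 29.5% of all genes tested) and none fell, and from melanosome to glabridin 2 of 7 rose (28.6%, against 23.7% of all genes tested), ATP6V0A2 and ATP6V0B. ATP6V0E2, the less common form of the small e subunit (chromosome 7, 149872968 to 149891204, plus strand, GRCh38), stood at 17.4, 17.1 and 17.3 CPM in control. It stood at 57.7, 59.0 and 61.0 in melanosome and at 54.9, 69.2 and 45.9 in glabridin libraries. The control libraries lay close together and below all others. The rise with melanosomes was 3.43-fold (log2 1.78 ± 0.13, adjusted p = 8.8e-07), and the step to glabridin was -0.06 ± 0.12 (adjusted p = 0.696). Without glabridin replicate 2 that step was -0.23 and called (adjusted p = 0.0251). ATP6V0E1, the common e subunit, was not called in any comparison, with log2 changes of -0.18, 0.04 and -0.14. Without glabridin replicate 2 its change with melanosomes was called at the same size (adjusted p = 0.00504; 0.0294 without replicate 3), and that between the outer groups was -0.25 and called (adjusted p = 0.00113).

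The a subunit forms the path of the protons and exists in several forms with different locations. ATP6V0A1 stood at 48.2, 45.8 and 45.6 CPM in control, 93.1, 90.6 and 94.2 in melanosome and 77.9, 93.8 and 69.0 in glabridin libraries. Melanosome libraries were 1.99-fold above control (log2 0.99 ± 0.10, adjusted p = 1.04e-05). From melanosome to glabridin it changed by -0.21 ± 0.10 (adjusted p = 0.107), and by -0.33 (adjusted p = 0.00105) without glabridin replicate 2. ATP6V0A2, a form known from the Golgi and endosomes, stood at 16.7, 15.8 and 17.0 CPM in control, 16.6, 14.5 and 15.7 in melanosome and 27.7, 23.1 and 27.1 in glabridin libraries. Control and melanosome libraries overlapped, and all 3 glabridin libraries lay above both, 1.66-fold over melanosome (log2 0.73 ± 0.10, adjusted p = 0.000169).

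The proteolipid ring carries the protons through the membrane. ATP6V0B, a ring subunit, stood at 88.9, 84.7 and 90.2 CPM in control, 135, 151 and 142 in melanosome and 199.8, 233 and 162.5 in glabridin libraries. The groups did not overlap at either step: the rise was 1.62-fold with melanosomes (log2 0.70 ± 0.11, adjusted p = 0.000302) and a further 1.39-fold with glabridin (log2 0.47 ± 0.11, adjusted p = 0.00523). Without glabridin replicate 1 the second step was 0.38 and not called (adjusted p = 0.0593). ATP6V0C, the main ring subunit, had only 9, 13 and 6 counts in control, 28, 22 and 26 in melanosome and 15, 18 and 18 in glabridin libraries. In the annotation 57.5% of its exon bases also lie in same-strand genes (AC093525.1 and AC093525.2) and 4 pseudogenes bear its name, so its level here is uncertain. The rise with melanosomes was called (log2 1.27 ± 0.32, adjusted p = 0.00598). Its rise between the outer groups (0.85 ± 0.34, adjusted p = 0.044) was lost when any single library other than control replicate 2 was left out (0.65 to 0.93).

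ATP6V0D1, which joins the ring to the central stalk, stood at 102, 104 and 104 CPM in control, 121.5, 136 and 136 in melanosome and 144, 174 and 128 in glabridin libraries. It rose 1.27-fold with melanosomes (log2 0.34 ± 0.10, adjusted p = 0.0115), and glabridin and melanosome libraries overlapped (0.18 ± 0.10, adjusted p = 0.166). Without glabridin replicate 3 the second change was 0.28 and called (adjusted p = 0.0125).

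Both accessory proteins rose with glabridin. ATP6AP1, which helps to assemble V0, stood at 251, 251 and 249 CPM in control, 253, 268.5 and 271 in melanosome and 400.4, 432 and 351 in glabridin libraries. The 3 glabridin libraries lay above all 6 others, 1.49-fold over melanosome (log2 0.58 ± 0.07, adjusted p = 0.000116), and control and melanosome differed by 0.08 ± 0.07 (adjusted p = 0.365). That last difference was called at 0.24 with library totals (adjusted p = 0.00456) and at 0.16 with only the groups compared (adjusted p = 0.000676). ATP6AP2, the prorenin receptor, stood at 56.5, 52.5 and 59.1 CPM in control, 78.0, 72.6 and 60.5 in melanosome and 91.4, 87.5 and 102.5 in glabridin libraries. Its rise with melanosomes (log2 0.33 ± 0.10, adjusted p = 0.0143) was lost without control replicate 2, melanosome replicate 1 or melanosome replicate 2 (0.25 to 0.31, adjusted p from 0.0504 to 0.0623). Its rise with glabridin over melanosome (0.41 ± 0.10, adjusted p = 0.00644) was 0.24 and not called with library totals (adjusted p = 0.11).

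**Figure D2:**
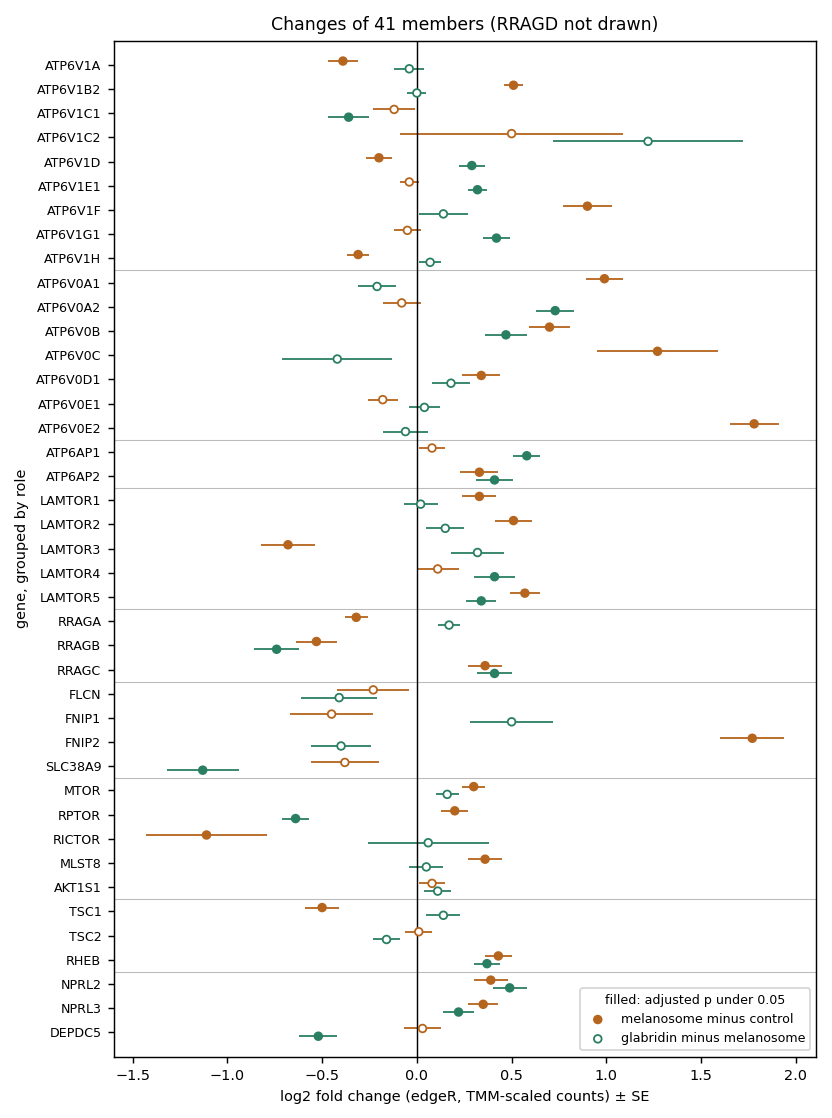
Log2 fold change ± SE of 41 members, melanosome minus control (brown) and glabridin minus melanosome (green); filled points have an adjusted p under 0.05. RRAGD is left out because it had no counts in control. ATP6V0E2 (1.78) and FNIP2 (1.77) lie farthest right for the first comparison, and SLC38A9 (-1.13) and RRAGB (-0.74) farthest left for the second.

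Levels of different genes were compared per length, as TPM, the deposited values scaled by transcript length and library size. Within families of exchangeable subunits the shares of TPM moved. ATP6V1B1, the B subunit form known from acid-secreting cells and not among the 42, had 353, 382 and 365 TPM in control, 112, 115 and 119 in melanosome and 26.9, 22.0 and 26.0 in glabridin libraries. It took 87.2% ± 0.41 (SD, n = 3) of B subunit TPM in control, 57.0% ± 1.46 in melanosome and 24.6% ± 1.31 in glabridin libraries, and ATP6V1B2 took the rest. Summed B subunit TPM was 420.6, 201.9 and 101 in the same order. By the count test ATP6V1B1 fell at both steps (log2 -1.85 ± 0.07, adjusted p = 9.81e-09, and -2.02 ± 0.07, adjusted p = 2.62e-08). In the annotation 62.4% of its exon bases also lie in the same-strand gene VAX2, and how reads there were assigned was not given.

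In the a subunit family, TCIRG1, the a3 form known from osteoclasts and lysosomes, took 56.1% ± 1.46 (SD, n = 3) of TPM in control, 37.6% ± 1.61 in melanosome and 34.2% ± 0.313 in glabridin libraries. ATP6V0A1 took 37.3%, 56.9% and 56.2%, and ATP6V0A2 took 6.53%, 4.73% and 9.15%. Mean TPM of TCIRG1 was 37.27, 36.98 and 25.75 in the same order, and that of ATP6V0A1 was 24.82, 55.96 and 42.42. By the count test TCIRG1 was not called from control to melanosome (log2 -0.19 ± 0.10, adjusted p = 0.115; called without glabridin replicate 2 or 3). It fell from melanosome to glabridin (-0.33 ± 0.10, adjusted p = 0.019). That call was lost without melanosome replicate 2 or 3 (-0.33 and -0.29). ATP6V0E2 took 6.82% ± 0.125 of e subunit TPM in control, 22.2% ± 0.189 in melanosome and 20.9% ± 1.43 in glabridin libraries. The share of ATP6V0E2 in every control library was below that in every other library.

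**Figure D3:**
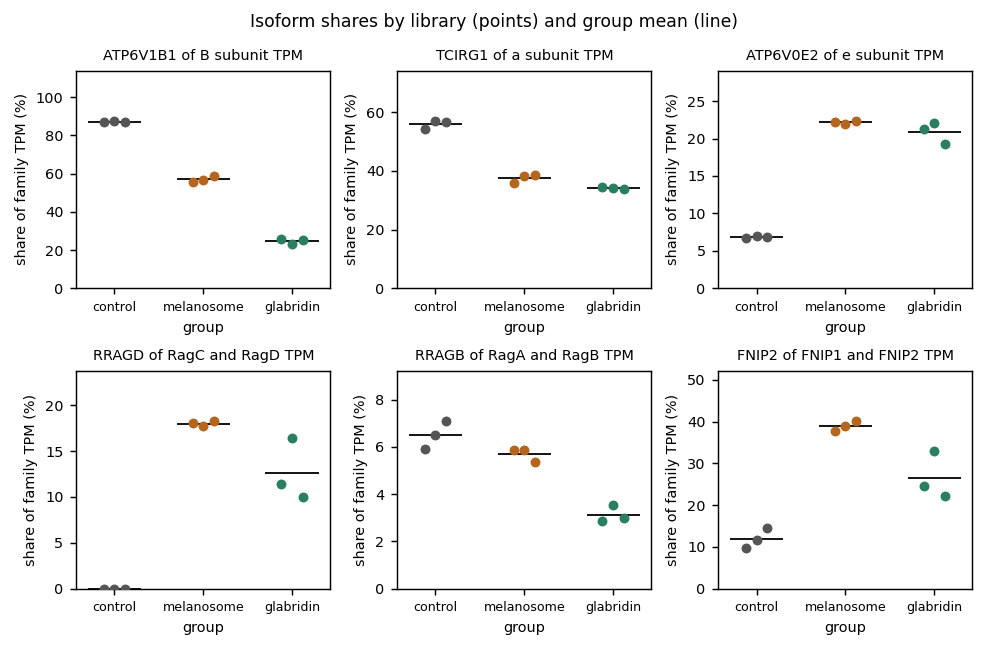
Share of summed family TPM (percent) taken by 1 named gene in each library (points), with the group mean as a line, for 6 families of paralogous genes. The share of ATP6V1B1 falls from 87.2% to 57.0% to 24.6%, and that of RRAGD is 0 in control and 18% and 12.6% in melanosome and glabridin libraries.

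Ragulator is the pentamer that anchors the Rags. From control to melanosome 3 of its 5 genes rose (60%) and 1 fell (20%), against 29.5% and 33.0% of all genes tested. From melanosome to glabridin 2 rose (40%) and none fell, against 23.7% and 20.2%. LAMTOR5 stood at 56.1, 55.4 and 59.0 CPM in control, 82.3, 86.0 and 84.6 in melanosome and 104, 119.6 and 95.9 in glabridin libraries, with no overlap at either step. Its changes were 0.57 ± 0.08 (adjusted p = 0.000138) and 0.34 ± 0.08 (adjusted p = 0.00567) on the log2 scale, the second 0.27 without glabridin replicate 1 (adjusted p = 0.0699) and 0.16 with library totals (adjusted p = 0.0828), neither of them called. LAMTOR2 stood at 42.1, 43.3 and 43.2 CPM in control, 56.9, 63.6 and 61.99 in melanosome and 67.5, 77.4 and 57.3 in glabridin libraries. It rose 1.42-fold with melanosomes (log2 0.51 ± 0.10, adjusted p = 0.00137), and glabridin and melanosome libraries overlapped (0.15 ± 0.10, adjusted p = 0.254; 0.25, adjusted p = 0.015, without glabridin replicate 3). LAMTOR1, the lipid-anchored subunit that ties the complex to the membrane, rose by 0.33 ± 0.09 with melanosomes (adjusted p = 0.00884).

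LAMTOR4 stood at 56.9, 55.1 and 59.3 CPM in control, 58.3, 63.4 and 63.5 in melanosome and 81.4, 97.0 and 67.8 in glabridin libraries. The glabridin libraries lay above the other 6, 1.33-fold over melanosome (log2 0.41 ± 0.11, adjusted p = 0.0119). That call was lost without glabridin replicate 1 (0.33, adjusted p = 0.0976) and with library totals (0.23, adjusted p = 0.0832). LAMTOR3 was the member of the complex that fell: it stood at 32.3, 29.4 and 33.4 CPM in control, 22.2, 20.7 and 16.5 in melanosome and 24.02, 21.1 and 29.2 in glabridin libraries. Its melanosome libraries were 1.60-fold below control (log2 -0.68 ± 0.14, adjusted p = 0.00169). From melanosome to glabridin the change was 0.32 ± 0.14 (adjusted p = 0.0821), and 0.43 (adjusted p = 0.0124) without glabridin replicate 2. Between the outer groups it fell by 0.35 (adjusted p = 0.0399), a call lost without glabridin replicate 2 (-0.25, adjusted p = 0.0932), control replicate 1 or 3, melanosome replicate 2 or glabridin replicate 1, and with library totals (-0.36, adjusted p = 0.0571). LAMTOR3 has 2 named pseudogenes.

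The Rag GTPases work as pairs, RagA or RagB with RagC or RagD. RRAGD (chromosome 6, 89364636 to 89412270, minus strand) had 0 counts in each of the 3 control libraries, 1123, 824 and 985 counts in melanosome and 697, 848 and 696 in glabridin libraries. On the CPM scale these were 21.8, 19.3 and 19.8 with melanosomes and 15.7, 21.3 and 15.2 with glabridin. A limit of 3 counts over the control group (0.0234 CPM, counting error only) takes each count as a separate fragment. Against that limit, RRAGD was at least 868-fold higher with melanosomes and at least 744-fold higher with glabridin. Both bounds would be lower if both mates of a pair were counted, which was not given. It was called in both comparisons with control (adjusted p = 2.96e-08 and 2.22e-08). From melanosome to glabridin it changed by -0.22 ± 0.14 (adjusted p = 0.237), and by -0.39 (adjusted p = 0.00725) without glabridin replicate 2. The order of the glabridin libraries was that of their melanocyte marker sums (2613, 3986 and 2211 CPM). Their keratinocyte marker sums (10990, 12820 and 10160 CPM) had the same order. Among the melanosome libraries RRAGD was highest in replicate 1, where the melanocyte marker sum was lowest (3555, 3648 and 3683 CPM). The part of melanocyte transcripts in RRAGD was not tested.

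RRAGC stood at 39.8, 41.2 and 39.9 CPM in control, 55.1, 50.2 and 49.4 in melanosome and 68.0, 60.4 and 76.9 in glabridin libraries. The groups did not overlap, and the steps were 1.28-fold (log2 0.36 ± 0.09, adjusted p = 0.00569) and 1.33-fold (0.41 ± 0.09, adjusted p = 0.00392). With library totals the second was 0.23 and not called (adjusted p = 0.089). In the annotation 22.9% of RRAGC exon bases also lie in the same-strand gene AL139260.2. As a share of RagC and RagD TPM, RRAGD made up 18% ± 0.296 (SD, n = 3) in melanosome and 12.6% ± 3.41 in glabridin libraries.

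RRAGA and RRAGB, the other side of the pair, were lower with melanosomes. RRAGA stood at 74.8, 75.6 and 73.0 CPM in control, 57.6, 60.7 and 60.3 in melanosome and 69.4, 61.9 and 69.6 in glabridin libraries. It was 1.25-fold lower with melanosomes (log2 -0.32 ± 0.06, adjusted p = 0.00148), but -0.16 and not called with library totals (adjusted p = 0.0689). From melanosome to glabridin it changed by 0.17 ± 0.06 (adjusted p = 0.0543), and by 0.22 (adjusted p = 0.00499) without glabridin replicate 2. Between the outer groups it changed by -0.15 ± 0.06 (adjusted p = 0.0544), and was called without glabridin replicate 1 (-0.20) or replicate 3 (-0.18). RRAGB (chromosome X, 55717739 to 55758774, plus strand) stood at 6.35, 7.12 and 7.52 CPM in control, 4.86, 5.11 and 4.60 in melanosome and 2.76, 3.07 and 2.89 in glabridin libraries. It descended without overlap, 1.44-fold at the first step (log2 -0.53 ± 0.11, adjusted p = 0.00209) and 1.67-fold at the second (log2 -0.74 ± 0.12, adjusted p = 0.000543). Neither RRAGB call was lost in any alternative setting that was run. RRAGA and RRAGB are close paralogs, and reads that fit both could have been split between them. RRAGB made up 6.50% of RagA and RagB TPM in control, 5.70% in melanosome and 3.13% in glabridin libraries.

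Folliculin and its partners FNIP1 and FNIP2 form the GTPase-activating complex for RagC and RagD. FNIP2 (chromosome 4, 158769138 to 158908049, plus strand) stood at 2.18, 2.60 and 3.46 CPM in control, 9.94, 9.01 and 9.03 in melanosome and 6.55, 6.51 and 8.17 in glabridin libraries. It rose 3.40-fold with melanosomes (log2 1.77 ± 0.17, adjusted p = 7.58e-06). All 3 glabridin libraries lay below all 3 melanosome libraries, with a change of -0.40 ± 0.16 that missed the threshold (adjusted p = 0.0614). Without glabridin replicate 3 it was -0.51 (adjusted p = 0.0137), and with library totals -0.57 (adjusted p = 0.0178). The share of FNIP2 in the TPM of the 2 partners was 11.9% ± 2.41 (SD, n = 3) in control, 38.9% ± 1.15 in melanosome and 26.6% ± 5.64 in glabridin libraries.

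FLCN stood at 24.6, 25.9 and 27.9 CPM in control, 20.0, 23.97 and 22.7 in melanosome and 18.6, 10.7 and 20.7 in glabridin libraries. Replicate 2 of the glabridin group was the lowest of all 9 libraries. With all libraries FLCN was called only between the outer groups, 1.56-fold lower with glabridin than in control (log2 -0.65 ± 0.20, adjusted p = 0.0126). From control to melanosome the change was -0.23 ± 0.19 (adjusted p = 0.316; the same size and called, adjusted p = 0.0305, without glabridin replicate 2), and from melanosome to glabridin -0.41 ± 0.20 (adjusted p = 0.114; -0.60, adjusted p = 0.0128, without glabridin replicate 3, and -0.58, adjusted p = 0.0441, with library totals). In the annotation 11.9% of FLCN exon bases also lie in the same-strand gene AC055811.2. FNIP1 was not called in any comparison, and its glabridin libraries spread from 12.2 to 26.3 CPM. Its fall with melanosomes (-0.45 ± 0.22, adjusted p = 0.0908, no overlap) was called at the same size without glabridin replicate 2 (adjusted p = 0.006) or replicate 3 (adjusted p = 0.00801), and at -0.37 with only the groups compared (adjusted p = 0.00173). Without glabridin replicate 2 its change from melanosome to glabridin was 0.73 and called (adjusted p = 0.000718).

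SLC38A9, the lysosomal transporter that senses arginine (chromosome 5, 55625845 to 55773194, minus strand), stood at 11.5, 9.65 and 10.3 CPM in control, 7.92, 9.29 and 6.89 in melanosome and 3.12, 2.92 and 4.91 in glabridin libraries. Every glabridin library lay below every other library. The change from melanosome to glabridin was a 2.19-fold fall (log2 -1.13 ± 0.19, adjusted p = 0.000893), and between control and glabridin the fall was 2.86-fold (log2 -1.52 ± 0.19, adjusted p = 4.25e-05). From control to melanosome it changed by -0.38 ± 0.18 (adjusted p = 0.091), a change of the same size that was called without glabridin replicate 2 or replicate 3 (adjusted p = 0.0393 and 0.0129). It was the member with the lowest log2 change in both comparisons with glabridin.

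mTOR is the kinase of mTORC1 and mTORC2, RAPTOR (RPTOR) brings substrates and the Rags to mTORC1, and RICTOR defines mTORC2. Of the 5 genes in this group, 3 rose (60%) and 1 fell (20%) with melanosomes, against 29.5% and 33.0% of all genes tested. From melanosome to glabridin none rose and 1 fell (20%), against 23.7% and 20.2%. RPTOR (chromosome 17, 80544819 to 80966371, plus strand) stood at 37.7, 40.1 and 36.7 CPM in control, 41.6, 42.9 and 46.5 in melanosome and 27.8, 29.1 and 27.3 in glabridin libraries. All 3 glabridin libraries lay below all 6 others, 1.56-fold below melanosome (log2 -0.64 ± 0.07, adjusted p = 6.69e-05) and 1.36-fold below control (log2 -0.44 ± 0.07, adjusted p = 0.000291). Its step up with melanosomes (0.20 ± 0.07, adjusted p = 0.0371) was lost without control replicate 1, control replicate 3, melanosome replicate 2 or melanosome replicate 3 (0.15 to 0.21).

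MTOR stood at 61.3, 66.0 and 62.7 CPM in control, 75.0, 77.7 and 80.5 in melanosome and 86.0, 90.2 and 83.7 in glabridin libraries. The groups did not overlap. The first step was called (log2 0.30 ± 0.06, adjusted p = 0.00177) and the second was not (0.16 ± 0.06, adjusted p = 0.0587; 0.18, adjusted p = 0.0319, without glabridin replicate 3). MLST8, the subunit common to both complexes, rose by 0.36 ± 0.09 with melanosomes (adjusted p = 0.0055). AKT1S1 (PRAS40, an inhibitor within mTORC1) was called only between the outer groups (0.19 ± 0.07, adjusted p = 0.0382; lost without control replicate 1 or 3, melanosome replicate 2 or glabridin replicate 1, 0.12 to 0.19).

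RICTOR stood at 40.2, 38.7 and 42.3 CPM in control, 21.8, 17.2 and 17.2 in melanosome and 16.4, 9.98 and 32.0 in glabridin libraries. With melanosomes it was 2.16-fold lower, with no overlap (log2 -1.11 ± 0.32, adjusted p = 0.0107). The glabridin libraries ranged over 3.11-fold between replicates 2 and 3, as a ratio of CPM + 0.5. The step from melanosome to glabridin was 0.06 ± 0.32 (adjusted p = 0.896) with all libraries and -0.50 (adjusted p = 0.0272) without glabridin replicate 3. Its longest transcript, of 9543 bases, had the lowest GC content of the 42 (36.5%). Across the members the log2 change from control to melanosome had a Spearman correlation of 0.42 with GC content (n = 42 genes, which share the same libraries), and across 13907 genes it was 0.30. Whether base composition plays a part in single members was not tested.

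**Figure D4:**
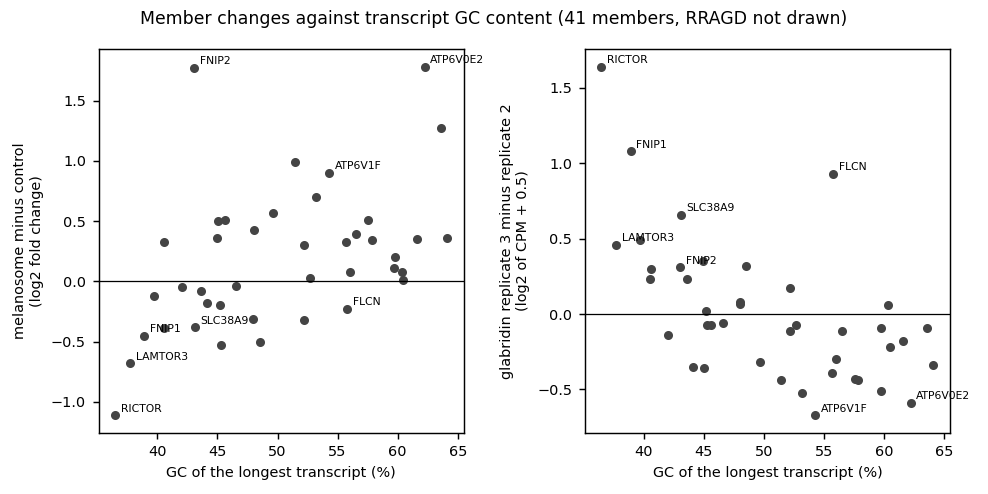
Left, log2 fold change from control to melanosome, and right, log2 difference between glabridin replicates 3 and 2, each against the GC content (percent) of the longest transcript, 1 point per member for 41 members (RRAGD left out). RICTOR, with the lowest GC content (36.5%), is the lowest point on the left (-1.11) and the highest on the right (1.64).

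Upstream of mTORC1, RHEB is the small GTPase that activates the kinase, and TSC1 and TSC2 form the complex that turns RHEB off. RHEB stood at 91.8, 95.2 and 91.7 CPM in control, 132.7, 126 and 116 in melanosome and 150.4, 161.5 and 171 in glabridin libraries. It rose at both steps without overlap, 1.34-fold (log2 0.43 ± 0.07, adjusted p = 0.000364) and 1.29-fold (0.37 ± 0.07, adjusted p = 0.00151), the second 0.19 and not called with library totals (adjusted p = 0.0657). RHEB has 3 named pseudogenes. TSC1 stood at 51.0, 52.7 and 47.8 CPM in control, 34.8, 35.5 and 36.7 in melanosome and 39.8, 34.6 and 43.3 in glabridin libraries, 1.41-fold lower with melanosomes (log2 -0.50 ± 0.09, adjusted p = 0.000641). Between melanosome and glabridin TSC1 changed by 0.14 ± 0.09 (adjusted p = 0.232), and by 0.22 (adjusted p = 0.0197) without glabridin replicate 2. TSC2 was not called in any comparison (0.01, -0.16 and -0.15), and with library totals it was called in all 3 (0.18, -0.34 and -0.16). Without glabridin replicate 2 it was called in both comparisons with glabridin (-0.20 from melanosome and -0.19 from control), and without replicate 1 in the first of these (-0.27).

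GATOR1 turns off RagA and RagB when amino acids are short. Its genes divided with glabridin: NPRL2 and NPRL3 were higher and DEPDC5, the subunit that contacts the Rags, was lower. NPRL2 stood at 14.2, 14.8 and 14.5 CPM in control, 17.2, 19.8 and 20.1 in melanosome and 28.1, 27.0 and 24.9 in glabridin libraries, without overlap. The steps were 1.31-fold (log2 0.39 ± 0.09, adjusted p = 0.0036) and 1.40-fold (0.49 ± 0.09, adjusted p = 0.00139). NPRL3 stood at 40.9, 37.5 and 39.4 CPM in control, 45.7, 51.9 and 52.4 in melanosome and 58.3, 61.8 and 54.4 in glabridin libraries. Its first step was 0.35 ± 0.08 (adjusted p = 0.00325). The second, 0.22 ± 0.08 (adjusted p = 0.0443), was lost with every other scaling (0.04 with library totals, adjusted p = 0.649) and without any single library other than glabridin replicate 3.

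DEPDC5 stood at 15.9, 17.8 and 16.4 CPM in control, 17.2, 16.3 and 17.6 in melanosome and 10.7, 12.9 and 12.2 in glabridin libraries. Control and melanosome libraries overlapped, and all 3 glabridin libraries lay below both, 1.43-fold below melanosome (log2 -0.52 ± 0.10, adjusted p = 0.0016). In the annotation 10.4% of its exon bases also lie in same-strand genes.

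Around these 42, a list of 60 further genes of the same pathways was read from the same fit, and 58 passed the filter. With melanosomes 20 of the 58 rose (34.5%) and 19 fell (32.8%), against 29.5% and 33.0% of all genes tested. With glabridin over melanosome 13 rose (22.4%) and 8 fell (13.8%), against 23.7% and 20.2%. Between the outer groups 25 rose (43.1%) and 16 fell (27.6%), against 37.6% and 32.7%. The shares that rose with each step were near those of all genes. The V-ATPase assembly factors and RAVE-type proteins, which build the pump or rejoin its sectors, held 7 genes of 9 that fell with melanosomes (77.8%). In that list 1 rose (11.1%), and log2 changes ran from -1.04 to 0.26. Library totals moved the median of all genes in this comparison by 0.17. OXR1 among them stood at 73.5, 72.0 and 74.2 CPM in control, 40.6, 36.5 and 29.9 in melanosome and 39.2, 33.1 and 61.7 in glabridin libraries (log2 -1.04 ± 0.20 with melanosomes, adjusted p = 0.000997). Of the 7 other V-ATPase subunits tested, 3 rose (42.9%) and 1 fell (14.3%) with melanosomes. ATP6V0A4 and ATP6V0D2, forms known from kidney and osteoclasts, were near 0 in control, at most 0.138 and 0.0989 CPM, and reached 0.751 to 0.969 and 1.01 to 1.22 CPM in melanosome libraries.

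Among sensors and transporters of amino acids, single genes moved at different steps. SESN2, the leucine sensor that inhibits GATOR2, stood at 40.96, 43.2 and 38.6 CPM in control, 33.0, 40.8 and 38.8 in melanosome and 131, 124.5 and 122 in glabridin libraries, 3.36-fold over melanosome (log2 1.75 ± 0.09, adjusted p = 2.23e-07). SESN3 fell with melanosomes (log2 -1.03 ± 0.21, adjusted p = 0.00156). SLC7A5 and SLC3A2 together form a leucine transporter. SLC7A5 ranged from 2218 to 2422 CPM in the 6 control and melanosome libraries and stood at 5255, 3704 and 4960 CPM in glabridin libraries (1.99-fold over melanosome, log2 1.00 ± 0.11, adjusted p = 4.64e-05). SLC3A2 stood at 566, 530 and 578 CPM in control, 687, 742.5 and 722.5 in melanosome and 1812, 1667 and 1606 in glabridin libraries. It rose with melanosomes (log2 0.36 ± 0.06, adjusted p = 0.000591) and again with glabridin (2.36-fold, log2 1.24 ± 0.06, adjusted p = 2.83e-07). SLC15A4, the lysosomal transporter of histidine and peptides, rose with melanosomes (log2 1.28 ± 0.07, adjusted p = 1.61e-07). Its step to glabridin was not called (-0.09 ± 0.07, adjusted p = 0.314). Of 5 tested genes in each list, sensors had 0 rises and 2 falls with melanosomes and 1 rise and 0 falls with glabridin over melanosome, and transporters 2 and 1, then 2 and 0. Over all genes tested 29.5% rose and 33.0% fell at the first step, and 23.7% and 20.2% at the second.

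In GATOR2, which restrains GATOR1, 1 of 5 genes rose (20%) and 1 fell (20%) with melanosomes, against 29.5% and 33.0% of all genes tested. From melanosome to glabridin 2 rose (40%) and none fell, against 23.7% and 20.2%. SEC13, which also coats transport vesicles, stood at 46.4, 49.7 and 47.2 CPM in control, 78.8, 84.3 and 91.2 in melanosome and 219.9, 226.5 and 203 in glabridin libraries. It rose 1.77-fold and then 2.55-fold (log2 0.83 ± 0.07, adjusted p = 3.47e-06, and 1.35 ± 0.07, adjusted p = 3.22e-07).

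Of 9 other mTORC1 regulators 6 rose (66.7%) and 2 fell (22.2%) with melanosomes, against 29.5% and 33.0% of all genes tested. From melanosome to glabridin 2 rose (22.2%) and 4 fell (44.4%), against 23.7% and 20.2%. TBC1D7, the third subunit of the TSC complex, stood at 19.3, 18.8 and 20.1 CPM in control, 51.4, 54.7 and 55.3 in melanosome and 33.1, 41.4 and 28.7 in glabridin libraries. It rose 2.77-fold (log2 1.47 ± 0.12, adjusted p = 2.3e-06) and then fell (log2 -0.64 ± 0.12, adjusted p = 0.00123). DDIT4 (REDD1), a stress-induced inhibitor of mTORC1, stood at 1719, 1733 and 1766 CPM in control and 1425, 1550 and 1580 in melanosome libraries. That lower level was called without glabridin replicate 2 or 3 (-0.20, adjusted p = 0.008 and 0.0112), but not with all libraries. The glabridin libraries, at 3439, 3975 and 3062 CPM, were 2.30-fold above melanosome (log2 1.20 ± 0.09, adjusted p = 2.76e-06). DDIT4L, the paralog of DDIT4, had 2 counts over the control group, 206 over the melanosome group and 44 over the glabridin group. The scaled ratio of DDIT4L to control was 91.8 with melanosomes (exact 95% interval 25.1 to 762.7, counting error only) and 21.7 with glabridin (5.67 to 184.9). These intervals also take each count as a separate fragment. RHEBL1, a relative of RHEB, rose with melanosomes from 0.692 to 1.18 CPM in control to 2.77 to 2.94 CPM (log2 1.57 ± 0.18, adjusted p = 3.72e-05).

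Of the 3 other mTORC2 subunits, 2 rose (66.7%) and 1 fell (33.3%) with melanosomes, against 29.5% and 33.0% of all genes tested. PRR5L among them was called up (log2 2.12 ± 0.35, adjusted p = 0.000413) from a level of 0.346 to 0.407 CPM in control. Of 11 mTORC1 substrates 4 rose (36.4%) and 3 fell (27.3%) with melanosomes, near the shares of all genes tested. With glabridin over melanosome 4 rose (36.4%) and 1 fell (9.09%), against 23.7% and 20.2% of all genes tested. EIF4EBP1, the translation repressor that mTORC1 phosphorylates, stood at 36.0, 36.1 and 36.3 CPM in control, 128, 143 and 144 in melanosome and 225.9, 222 and 199 in glabridin libraries. It rose 3.83-fold (log2 1.94 ± 0.07, adjusted p = 8.57e-09) and a further 1.56-fold (log2 0.64 ± 0.07, adjusted p = 3.66e-05). GRB10, an adaptor that mTORC1 stabilises, rose with melanosomes (log2 1.11 ± 0.08, adjusted p = 9.84e-07).

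**Figure D5:**
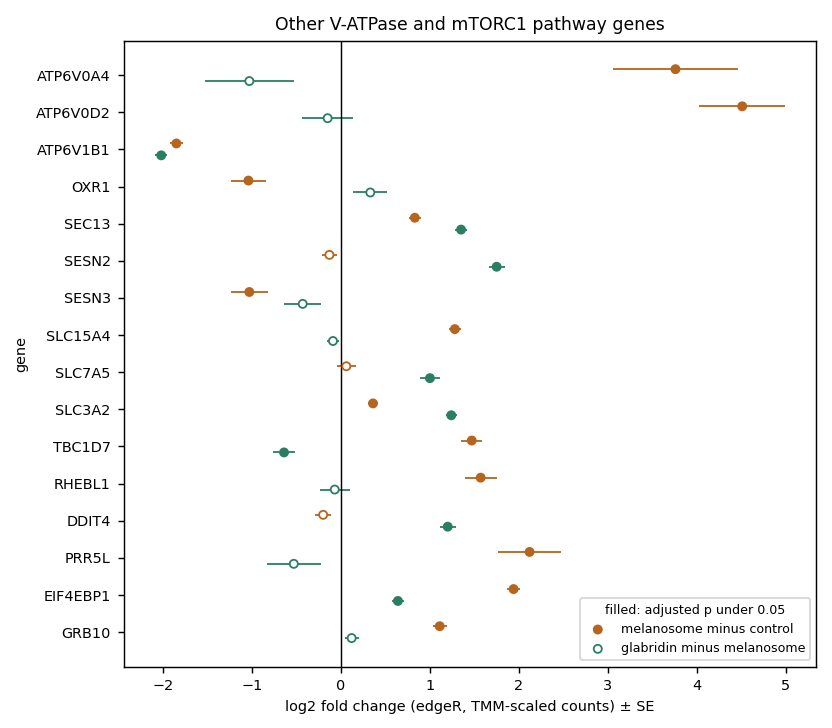
Log2 fold change ± SE of 16 further pathway genes, melanosome minus control (brown) and glabridin minus melanosome (green); filled points have an adjusted p under 0.05. ATP6V1B1 is the only gene left of -1.5 in both comparisons (-1.85 and -2.02), and SESN2 (1.75) lies farthest right for glabridin.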

How the data were processed

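RNA of 9 HaCaT samples was selected by poly(A) and sequenced as strand-specific pairs, per the labels' protocols. Raw gene counts, deposited as whole numbers, were the main input. The build is hg38 in the submitters' notes on processing. The same deposited table holds TPM, scaled by the authors for length and library size. The aligner, counting program, strand setting and annotation were not given in the sources used here. Among counts of 1 to 49, 69.9% to 72.2% were even. Whether both mates were counted was not given. If they were, the bounds of RRAGD would be lower and the intervals of DDIT4L wider than printed. Counting intervals leave out PCR duplication.

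Groups and replicate numbers came from the titles. The test was edgeR's quasi-likelihood test on the counts (edgeR 4.0.16, R 4.3.3, TMM, filterByExpr by group, all 9 libraries in a single fit), with Benjamini-Hochberg adjustment over 13912 genes and a threshold of 0.05. SE is that of the fitted log2 change. The script was tested on simulated data. Symbols matched 20148 of 20263 identifiers. Positions are from GENCODE 29 on GRCh38. The labels do not say whether replicates were separate cultures, and p-values then reflect only library-to-library spread, which may be technical. The members and lists were chosen with earlier results of these data known. Members called with non-overlapping libraries and a log2 change of at least 0.5, and RRAGA, RRAGC, RRAGD, MTOR and FLCN, are given in every library. ATP6V1A, ATP6V1G1, TSC1 and TCIRG1, and the other members given by a change alone, were named after their values were seen. Other pathway genes are named from a change of 1. Alternatives were RLE, upper-quartile and library-total scaling, DESeq2 1.42.0, limma 3.58.1 on log2(TPM + 1) and log2(TPM + 0.1), no filter, only the groups compared, a replicate block, and each library left out.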

Additional observations from a re-analysis of the deposited data

How the results depend on the processing

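Between control and glabridin, the counts of members that rose and fell stayed within 1.5 times in every alternative run. From melanosome to glabridin they depended on the scaling. With upper-quartile factors 9 members fell (V-ATPase 2, nutrient sensing 7). With library totals 6 members rose and 11 fell (nutrient sensing 1 rose and 8 fell, V-ATPase 3 fell), with 1872 rises and 4573 falls over all genes. With limma on log2(TPM + 1) 8 rose and 15 fell (nutrient sensing 2 and 9, V-ATPase 6 fell; all genes 1829 and 4802), and on log2(TPM + 0.1) 7 rose and 14 fell (2 and 9, V-ATPase 5 fell; 1797 and 4709). With only the groups compared, no V-ATPase member fell (0). From control to melanosome, members that fell were 4 with library totals (V-ATPase 0, all genes 2805), 4 with log2(TPM + 1) (V-ATPase 0, all genes 2543) and 3 with log2(TPM + 0.1) (V-ATPase 0, nutrient sensing 3, all genes 2471). Library totals moved the median of all genes by 0.17 in that comparison. ATP6V1B2 from melanosome to glabridin was called at -0.18 with library totals and at -0.18 and -0.19 with the limma fits. The direction of ATP6V1E1 from control to melanosome turned, with a call, in the same 3 settings (0.13, 0.14 and 0.14). With both limma fits ATP6V0E1 (-0.15 and -0.15) and LAMTOR1 (-0.17 and -0.17) turned from melanosome to glabridin, and RICTOR turned without glabridin replicate 3 (leaving out each library gave -0.50 to 0.37). For the changes that came with the scaling, the cause was not tested.

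Leaving out each library in turn gave, from melanosome to glabridin, 8 to 17 members that rose and 4 to 9 that fell (V-ATPase 5 to 9 and 0 to 3, nutrient sensing 3 to 9 and 4 to 7, all genes 2037 to 3956 and 2196 to 3376). From control to melanosome it gave 18 to 20 and 7 to 12 (V-ATPase 7 to 8 and 2 to 4, nutrient sensing 11 to 12 and 5 to 8, all genes 3663 to 4568 and 3753 to 5262). The lowest count of rises with glabridin came without glabridin replicate 1, and the 8 nutrient-sensing falls with melanosomes came without glabridin replicate 2. Deviations from the group means had correlations of -0.234 to 0.050 between same-numbered libraries of different groups. Between differently numbered libraries they ran from -0.198 to 0.273. With 3 libraries per group, these values cannot show whether the replicate numbers pair the libraries. With the replicate number as a block, members that rose and fell were 19 and 8 with melanosomes, 12 and 5 from melanosome to glabridin, and 24 and 10 between the outer groups. ATP6V0C and ATP6V1C2 had at most 36 counts in a library, which limits their precision.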
